A study of Bubalus bubalis with 12 samples.

Results

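A set of 10 genes that mark the endothelium, the cell layer lining blood vessels, were followed in the buffalo corpus luteum (CL) during the first 18 h after a luteolytic injection. The genes were PECAM1, CDH5, CLDN5, VWF, SELP, SELE, EMCN, APLNR, TIE1 and ENG, and their members on the array were all probe sets that the platform annotation gives to exactly 1 of these symbols, which made 15 of the 24016 probe sets tested. PECAM1, CDH5, VWF, EMCN and APLNR had 2 probe sets each and the other 5 genes had 1 each. The genes were chosen with their time courses in these same arrays known, some because they rose and some because they fell. Their values, differences and counts of calls are therefore given as a description, and nothing is read from the tests.

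The CL is the transient, progesterone-secreting gland left by ovulation, and prostaglandin F2α (PGF2α) ends its life. Buffalo cows (Bubalus bubalis) with regular cycles received 500 µg of cloprostenol, a PGF2α analogue, intramuscularly on day 11 of the estrous cycle. Whole CL were collected from 4 control animals (0 h, labelled as without treatment), and at 3 h (2 animals), 6 h (3 animals) and 18 h (3 animals) from the injection, with 1 GeneChip Bovine Genome Array per animal. All groups shared the cycle day, each CL came from another animal, and no vehicle injection is named for the controls. Values are log2 signals after robust multichip average (RMA) summary. The probes were designed on cattle sequence and hybridised with buffalo RNA, so levels are comparable between arrays but not between probe sets.

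The CL is one of the most densely vascularised tissues of the body, and endothelial cells make up a large share of its cells. They are joined to each other by adhesion proteins at their contacts, they store clotting and adhesion proteins in Weibel-Palade bodies, and they carry receptors for growth factors and peptides that set vessel growth and tone. Markers of this layer differ in what they do and in which vessels carry them: some are found along all vessels, others mainly on veins and capillaries or on sprouting vessels.

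Array medians lay between 7.09 and 7.17. Control replicate 3 stood apart from the other controls: on the first principal component (42.8% of the variance) arrays of 6 h and 18 h had scores of 16.3 to 37.9, control replicate 3 had -13.8 and the other controls had -48.8 to -35.8. The 2 animals at 3 h had scores of -29.6 and 1.9. They differed beyond 2-fold in 1306 probe sets, the most of any pair of one group. Control replicate 3 had the highest of the 4 control values in 11 of the 15 endothelial probe sets and the lowest in 0. Control replicates 1 and 4 were much alike (r = 0.997 over all probe sets), with a difference beyond 2-fold in 6 probe sets, where other pairs of one group had 220 to 1306, and between them they held the lowest control value in 14 of the 15 endothelial probe sets. The labels count both as animals, and counts of calls with the pair averaged are given for the endothelial probe sets and the other endothelial genes.

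Relative to the controls, PECAM1 and VWF had higher values at 6 h and 18 h, and EMCN and APLNR had lower ones. SELP had a higher mean at both times, by 1.47 at 6 h and 1.60 at 18 h on the log2 scale, with 1 control above all treated animals. CDH5, TIE1, CLDN5 and ENG differed from the control mean by 0.08 to 0.71 at these times, and SELE by 0.11 at 6 h and 0.05 at 18 h. The standard deviation of the log2 differences over the 10 genes, taking the brightest probe set of each, was 0.31 at 3 h, 1.04 at 6 h and 1.12 at 18 h, beside 0.31, 0.49 and 0.53 over all 9155 genes at the same times; a spread of this kind is set by the choice of genes that rose and genes that fell, and nothing is read from it. The RNA came from whole tissue, so a smaller number of cells of a type and less RNA per cell cannot be told apart. The 3 comparisons with 0 h share the same control arrays.

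**Figure D1:**
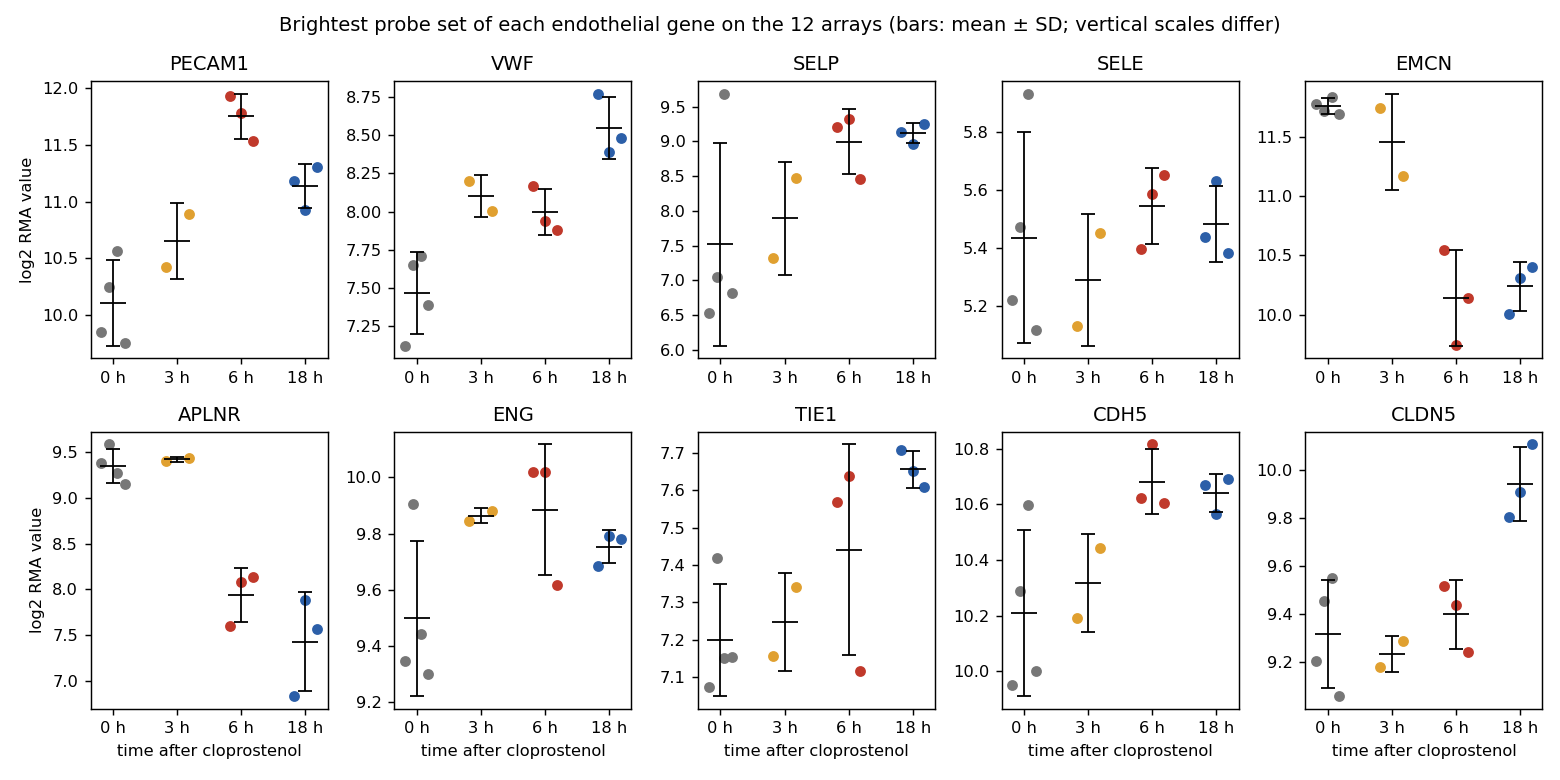
Log2 RMA value (vertical axis, with a scale of its own in each panel) of the brightest probe set of each of the 10 endothelial genes on the 12 arrays, by time after cloprostenol (horizontal axis). Each point is 1 animal and the bars are the mean ± SD of a time. PECAM1 and VWF lie above all 4 controls at 6 h and 18 h, EMCN and APLNR lie below all 4 controls at both times, and 1 control animal has the highest SELP value of the 12 arrays.

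PECAM1 encodes CD31, an adhesion protein at the contacts between endothelial cells that is also carried by platelets and leukocytes. Its brightest probe set read 9.85, 10.25, 10.57 and 9.76 in the 4 control CL, 10.42 and 10.89 at 3 h, 11.94, 11.78 and 11.54 at 6 h, and 11.18, 10.93 and 11.31 at 18 h. At 6 h and at 18 h every animal lay above the highest control, while at 3 h the lower of the 2 animals lay inside the control range. The difference from 0 h was 0.55 ± 0.23 at 3 h, 1.64 ± 0.20 at 6 h (3.12-fold) and 1.03 ± 0.20 at 18 h (2.04-fold), as log2 differences ± SE of the fit over all arrays.

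The second PECAM1 probe set read 8.74, 9.08, 9.50 and 8.93 in the controls, 9.62 and 9.92 at 3 h, 11.14, 10.81 and 10.69 at 6 h, and 10.38, 10.11 and 10.42 at 18 h. Here the 3 h animals also lay above all controls. The log2 difference from 0 h was 0.70 ± 0.20 at 3 h, 1.82 ± 0.18 at 6 h (3.52-fold) and 1.24 ± 0.18 at 18 h (2.36-fold). Both probe sets were highest at 6 h and partly back at 18 h: every 18 h value was below every 6 h value, by a mean log2 of 0.58 ± 0.19 in this probe set and 0.61 ± 0.21 in the brighter one.

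CDH5 encodes VE-cadherin, the cadherin of the endothelial adherens junction. Its brighter probe set read 9.95, 10.29, 10.60 and 10.002 in the controls, 10.19 and 10.44 at 3 h, 10.62, 10.82 and 10.61 at 6 h, and 10.67, 10.56 and 10.69 at 18 h. The 6 h values began just above the highest control, replicate 3, and 1 animal at 18 h lay below that control. The log2 difference was 0.47 ± 0.15 at 6 h and 0.43 ± 0.15 at 18 h. The second CDH5 probe set gave 0.66 ± 0.18 at 6 h (9.16, 9.01 and 8.84, against 8.18, 8.39, 8.76 and 8.04 in the controls) and 0.71 ± 0.18 at 18 h. The CDH5 difference at 6 h was thus less than that of PECAM1 in either pair of probe sets.

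CLDN5 encodes claudin-5, a strand protein of endothelial tight junctions. It read 9.20, 9.45, 9.55 and 9.06 in the controls, 9.18 and 9.28 at 3 h, 9.51, 9.44 and 9.24 at 6 h, and 9.80, 9.91 and 10.11 at 18 h. The 3 h and 6 h values lay inside the control range and the 18 h values lay above it. The log2 difference from 0 h was 0.08 ± 0.13 at 6 h and 0.62 ± 0.13 at 18 h, and that of 18 h against 6 h was 0.54 ± 0.14. CLDN5 and PECAM1, both of the cell contacts, therefore had their highest values at different times, PECAM1 at 6 h and CLDN5 at 18 h.

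VWF encodes von Willebrand factor, the protein that tethers platelets to damaged vessel walls and fills the Weibel-Palade bodies of endothelial cells; megakaryocytes and platelets hold it too. Its brighter probe set read 7.12, 7.65, 7.71 and 7.39 in the controls, 8.20 and 8.01 at 3 h, 8.17, 7.94 and 7.88 at 6 h, and 8.77, 8.39 and 8.48 at 18 h. All 8 animals that received cloprostenol lay above the highest control. The log2 difference from 0 h was 0.63 ± 0.17 at 3 h, 0.53 ± 0.15 at 6 h and 1.08 ± 0.15 at 18 h (2.11-fold), and every 18 h value exceeded every 6 h and 3 h value.

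The second VWF probe set did not show this. Its values lay between 4.69 and 5.14 on all 12 arrays, near the bottom of the scale, and its log2 difference from 0 h was 0.09 ± 0.13 at 3 h, -0.08 ± 0.12 at 6 h and -0.02 ± 0.12 at 18 h. Over the 12 arrays the 2 VWF probe sets had a Pearson r of 0.18, beside 0.99 for the pair of PECAM1, 0.98 for EMCN, 0.92 for APLNR and 0.83 for CDH5, given as a description over arrays that fall into 4 time groups. Why the VWF pair differs was not tested. The VWF pattern rests on 1 probe set.

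SELP encodes P-selectin, the adhesion molecule that Weibel-Palade bodies and platelet granules bring to the surface to catch leukocytes. It read 6.53, 7.05, 9.69 and 6.82 in the controls, 7.32 and 8.47 at 3 h, 9.21, 9.32 and 8.46 at 6 h, and 9.14, 8.97 and 9.25 at 18 h. Control replicate 3 had the highest value of the 12 arrays, and the other 3 controls lay below all 8 treated animals. With all controls the log2 difference was 1.47 ± 0.63 at 6 h and 1.60 ± 0.63 at 18 h, and without control replicate 3 it was 2.19 at 6 h and 2.32 at 18 h. The same control also had AIF1, a macrophage gene, at 11.86 (the next control was at 9.48) and TYROBP, a signalling adaptor of myeloid cells, at 8.70 (the next was at 7.57); their part in the SELP value was not tested.

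SELE encodes E-selectin, which endothelial cells make after inflammatory cytokines. Its values lay between 5.12 and 5.93 in the controls, at 5.13 and 5.45 at 3 h, between 5.40 and 5.65 at 6 h, and between 5.38 and 5.63 at 18 h. All 8 treated animals lay inside the control range. The log2 difference was 0.11 ± 0.18 at 6 h and 0.05 ± 0.18 at 18 h. The SELP mean lay 1.47 or more above the control mean at both times, with an SE of 0.63 and values overlapping the controls. By limma's moderated test SELP was not called (adjusted p = 0.164 at 6 h and 0.126 at 18 h). The 2 selectins were not compared with each other. At signals as low as those of SELE, RMA differences can be understated.

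EMCN encodes endomucin, a sialomucin of the endothelial surface, mainly of veins and capillaries, that hinders leukocyte adhesion. Its brightest probe set read 11.78, 11.72, 11.84 and 11.69 in the controls, 11.74 and 11.17 at 3 h, 10.55, 9.74 and 10.14 at 6 h, and 10.01, 10.31 and 10.40 at 18 h. The controls agreed closely (SD 0.06), 1 of the 2 animals at 3 h was still inside their range, and all 6 later animals lay below it. The log2 difference from 0 h was -0.30 ± 0.21 at 3 h, -1.61 ± 0.19 at 6 h (3.06-fold lower) and -1.52 ± 0.19 at 18 h (2.86-fold lower).

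The second EMCN probe set followed the same course. It read 9.75, 9.54, 9.93 and 9.77 in the controls, 9.76 and 9.20 at 3 h, 8.86, 8.09 and 8.34 at 6 h, and 8.18, 8.93 and 8.51 at 18 h. Its log2 difference was -1.32 ± 0.22 at 6 h and -1.21 ± 0.22 at 18 h. Between 18 h and 6 h the EMCN values overlapped in both probe sets, with log2 differences of 0.10 ± 0.20 and 0.11 ± 0.23.

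APLNR encodes the receptor of apelin, a G protein-coupled receptor of venous and sprouting endothelium. Its brighter probe set read 9.38, 9.59, 9.28 and 9.15 in the controls, 9.40 and 9.44 at 3 h, 7.60, 8.08 and 8.14 at 6 h, and 6.83, 7.88 and 7.57 at 18 h. The 3 h values lay inside the control range, and all 6 later values lay more than 1 log2 unit below the lowest control. The log2 difference from 0 h was 0.07 ± 0.25 at 3 h, -1.41 ± 0.22 at 6 h (2.66-fold lower) and -1.92 ± 0.22 at 18 h (3.79-fold lower). The 18 h and 6 h values overlapped, at -0.51 ± 0.24.

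The second APLNR probe set moved the same way by less. It read 7.89, 7.92, 8.003 and 8.04 in the controls, 8.16 and 7.94 at 3 h, 7.50, 7.73 and 7.69 at 6 h, and 7.48, 7.60 and 7.59 at 18 h. Its log2 difference was -0.32 ± 0.09 at 6 h and -0.41 ± 0.09 at 18 h. The size of the APLNR fall therefore depended on the probe set, while its direction at 6 h and 18 h did not. In the 2 animals at 3 h neither probe set lay below the control range.

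TIE1 encodes an endothelial receptor tyrosine kinase that acts with the angiopoietin receptor TEK. It read 7.07, 7.42, 7.15 and 7.15 in the controls, 7.15 and 7.34 at 3 h, 7.57, 7.64 and 7.12 at 6 h, and 7.71, 7.65 and 7.61 at 18 h. The 6 h values overlapped the controls and the 18 h values lay just above them, with log2 differences of 0.24 ± 0.13 at 6 h and 0.46 ± 0.13 at 18 h. ENG encodes endoglin, a co-receptor of the TGFβ family on endothelium. It read 9.35, 9.90, 9.44 and 9.30 in the controls, 9.84 and 9.88 at 3 h, 10.02, 10.02 and 9.62 at 6 h, and 9.69, 9.79 and 9.78 at 18 h. The ENG values overlapped those of the controls at every time, and the log2 difference was 0.39 ± 0.15 at 6 h.

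**Figure D2:**
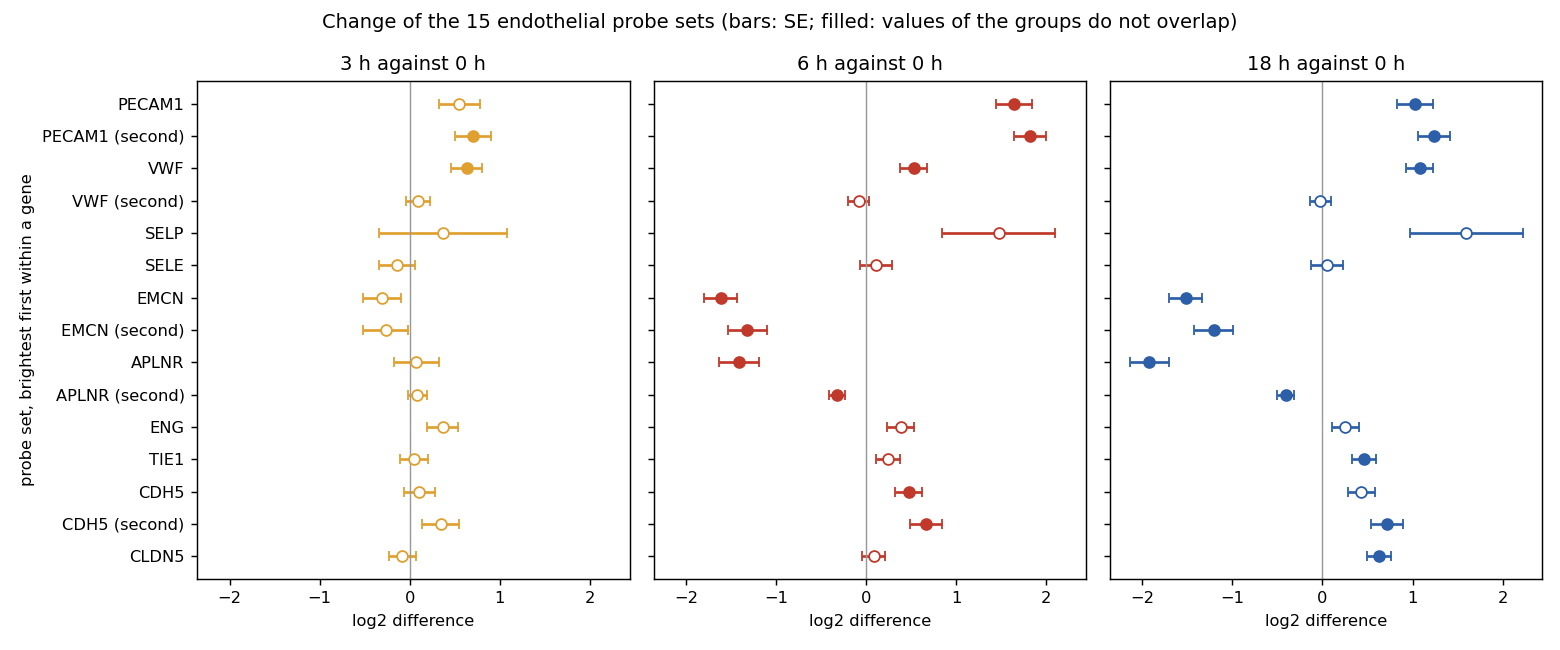
Log2 difference from 0 h (horizontal axis) of the 15 endothelial probe sets (rows, the brightest first within a gene) at 3 h, 6 h and 18 h after cloprostenol. Points are differences of group means, bars are the SE of the fit, and filled points mark probe sets whose treated and control values do not overlap. At 6 h both PECAM1 probe sets lie at 1.64 and above and both EMCN probe sets at -1.32 and below, while the second VWF probe set and SELE lie near 0 at each time.

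By limma's moderated test over all probe sets with Benjamini-Hochberg adjustment, 0 of the 15 probe sets were called at 3 h (adjusted p under 0.05), where 0.0208% of all probe sets were called, and 3 had an unadjusted p under 0.05. At 6 h 4 were higher and 4 lower (8 of 15), beside 11.3% of all probe sets called (5.26% higher, 6.08% lower). At 18 h 6 were higher and 4 lower (10 of 15), beside 12.3% (5.71% higher, 6.63% lower). For 18 h against 6 h 0 were called, beside 0.45%, and 4 had an unadjusted p under 0.05. The values of the 2 groups did not overlap in 2, 9 and 10 of the 15 at 3 h, 6 h and 18 h, beside 14.4%, 25.7% and 25.4% of all probe sets. Since the genes were picked on these comparisons, nothing is read from these counts. The count at 6 h was 5 without control replicate 1, without control replicate 4, and without any one of the 3 animals at 6 h. In those fits 4.86% to 7.86% of all probe sets were called. It was 9 without control replicate 3 (14.6% of all probe sets). With control replicates 1 and 4 averaged it was 5 at 6 h (5.73% of all probe sets) and 8 at 18 h (7.73%).

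Array by array, with each gene set to its control mean (which by itself keeps the control distances small), the distance between the highest and the lowest of the 10 genes was 1.03, 0.87, 2.24 and 0.66 log2 units in the controls, 1.03 and 1.54 at 3 h, 3.57, 3.81 and 3.05 at 6 h, and 4.13, 2.91 and 3.51 at 18 h. The widest control, replicate 3, had SELP at its top. PECAM1 or SELP was the highest gene and EMCN or APLNR the lowest on all 6 arrays of 6 h and 18 h.

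These distances and those between pairs of genes restate the choice of the genes and are given to show the single animals. VWF minus APLNR, on values centred on the control means, was -0.38, -0.06, 0.31 and 0.12 in the controls, 0.68 and 0.45 at 3 h, 2.44, 1.74 and 1.62 at 6 h, and 3.82, 2.39 and 2.79 at 18 h. The 3 h values already lay above all controls, with VWF higher and APLNR not lower. PECAM1 minus EMCN was -0.28, 0.18, 0.38 and -0.28 in the controls, 0.33 and 1.38 at 3 h, 3.04, 3.69 and 3.05 at 6 h, and 2.82, 2.27 and 2.56 at 18 h. Every 6 h value of PECAM1 minus EMCN was above every 18 h value, while the 18 h and 6 h values of VWF minus APLNR overlapped.

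**Figure D3:**
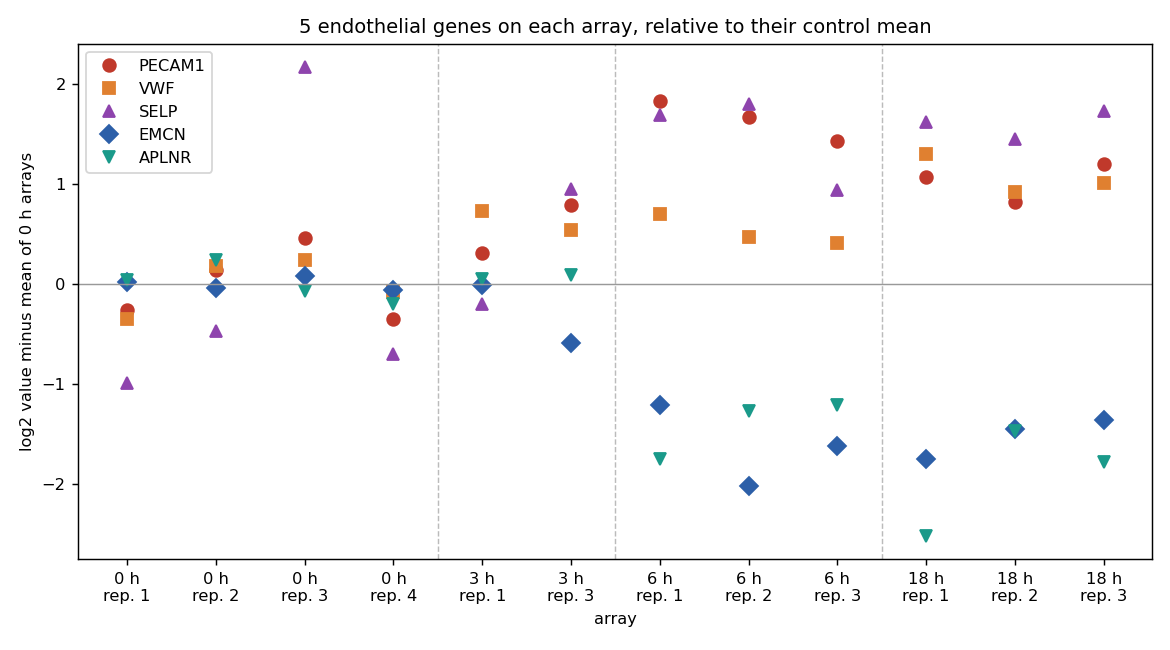
Log2 value minus the mean of the 4 control arrays (vertical axis) of PECAM1, VWF, SELP, EMCN and APLNR (brightest probe sets) on each of the 12 arrays (horizontal axis, in groups divided by dashed lines). On all 6 arrays of 6 h and 18 h PECAM1, VWF and SELP lie above 0 and EMCN and APLNR below it. In control replicate 3 SELP lies 2.16 above the control mean.

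In 4 further lists, other endothelial genes (58 genes with 44 on the array under 1 symbol) were examined in the same way with 1 probe set per gene. At 6 h 9 rose and 3 fell (27.3% of the 44), beside 14.2% of all 9155 genes (6.55% higher, 7.66% lower), and the median log2 difference was 0.17, beside -0.05 over all genes. At 18 h 4 rose and 3 fell (15.9%), the same share as that of all genes (15.9%, of which 7.55% higher and 8.35% lower). At 3 h 1 fell, beside 0.0328% of all genes, and for 18 h against 6 h 0 were called, beside 0.644%. The count at 6 h depended on single arrays, and the share of all probe sets called (11.3% with all arrays) changed along with it. The shares given beside the following counts are over all probe sets. With all arrays such shares were lower than those over all genes (11.3% against 14.2% at 6 h, 12.3% against 15.9% at 18 h). Leaving out 6 h replicate 2 gave 3 (4.86% of all probe sets) and leaving out control replicate 1 gave 4 (5.71%). Leaving out control replicate 4 or 6 h replicate 1 gave 5 (5.59% and 5.27%), and leaving out 6 h replicate 3 gave 7 (7.86%). At 18 h (12.3% with all arrays) leaving out 18 h replicate 1 gave 3 (6.42%). Leaving out control replicate 1 or 4 gave 4 at 18 h (7.55% and 7.57%). All adjusted p-values below are from limma.

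Among surface and junction genes (14 of 20 measured) 4 rose and 1 fell at 6 h (35.7%, beside 14.2% of all genes). At 18 h 0 were called, beside 15.9% of all genes. JAM2, a junctional adhesion molecule, was down regulated at 6 h: it averaged 8.60 ± 0.31 at 6 h and 9.69 ± 0.10 at 0 h (SD, n = 3 and 4), a log2 difference of -1.09 (2.13-fold lower, adjusted p = 0.00374). At 18 h it averaged 9.33 ± 0.33, at -0.36 (adjusted p = 0.21). PLVAP, the diaphragm protein of fenestrated endothelium, was up regulated at 6 h, at 8.26 ± 0.14, against 6.62 ± 0.84 at 0 h (log2 1.63, adjusted p = 0.0127), a call that was lost without 6 h replicate 2 (adjusted p = 0.0508). ADGRF5, an adhesion G protein-coupled receptor, rose by 0.43 at 6 h (adjusted p = 0.0327), but without 6 h replicate 2 the adjusted p was 0.134, and the call was also lost without either other 6 h animal or without control replicate 1, 2 or 4 (0.0648 to 0.0827).

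Receptors and nitric oxide genes were all measured (10 of 10), with 2 higher and 1 lower at 6 h (30%, beside 14.2% of all genes). At 18 h 2 were higher and 2 lower (40%, beside 15.9% of all genes). NOSTRIN, which draws endothelial nitric oxide synthase away from the plasma membrane, read 11.02, 11.11, 11.06 and 11.04 in the controls, 10.07 and 10.20 at 3 h, 9.66, 9.46 and 9.75 at 6 h, and 9.41, 9.35 and 9.66 at 18 h. It was down regulated at each time, by a log2 of 0.93 at 3 h (adjusted p = 0.0333), 1.44 at 6 h (8.52e-05) and 1.59 at 18 h (2.38e-05). The 6 h and 18 h calls held without each of the 12 arrays in turn, whereas the 3 h call was lost without 5 of them, with adjusted p up to 0.135.

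NOS3, the endothelial nitric oxide synthase itself, moved the opposite way. It read 6.13, 6.80, 6.75 and 6.56 in the controls, 7.13 and 7.57 at 3 h, 8.68, 8.15 and 7.58 at 6 h, and 8.26, 8.001 and 7.40 at 18 h. All 8 treated animals lay above the highest control. The log2 difference was 1.58 at 6 h (adjusted p = 0.00597) and 1.33 at 18 h (adjusted p = 0.00917, and 0.0511 without 18 h replicate 1).

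TEK, the angiopoietin receptor to which TIE1 couples, averaged 10.44 ± 0.22 at 6 h and 9.54 ± 0.43 at 0 h (log2 0.90, adjusted p = 0.028). The TEK call was lost without control replicate 1, 2 or 4 or without 6 h replicate 1 or 2 (0.0536 to 0.108), and at 18 h the log2 difference was 0.30 (adjusted p = 0.46). NRP1, a co-receptor of VEGF and semaphorins, fell by 0.89 at 18 h (adjusted p = 0.0254), a call lost without control replicate 1 or 4 or 18 h replicate 1 or 3 (0.0542 to 0.118). KDR, the main VEGF receptor, averaged 5.82 ± 0.18 at 0 h, 5.35 ± 0.04 at 6 h (adjusted p = 0.241) and 5.30 ± 0.01 at 18 h (adjusted p = 0.18). Its 6 h and 18 h values lay below all controls, but at a low signal.

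Of the endothelial transcription factors (10 of 16 measured) 1 fell at 6 h and 1 at 18 h (10% each, beside 14.2% and 15.9% of all genes). MEF2C fell by 0.53 at 18 h (adjusted p = 0.00814), with a difference of -0.33 at 6 h (adjusted p = 0.0752). LMO2 fell by 0.61 at 6 h (adjusted p = 0.0294), and its call was lost without control replicate 1 or 2 or 6 h replicate 2 or 3 (0.0504 to 0.108).

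Of the genes of activated endothelium (10 of 12 measured) 3 rose at 6 h (30%, beside 14.2% of all genes). At 18 h 2 rose (20%, beside 15.9%), and 0 were called lower at either time. Nothing is read from counts this small. EDN1, which encodes the vasoconstrictor endothelin-1, read 7.92, 9.40, 9.59 and 8.01 in the controls, 8.39 and 9.82 at 3 h, 10.58, 10.14 and 10.19 at 6 h, and 10.99, 11.23 and 11.06 at 18 h. It was up regulated at 18 h, by a log2 of 2.37 (5.15-fold, adjusted p = 0.00506), a call that held without each array in turn. At 6 h the log2 difference was 1.58 (adjusted p = 0.0378), and this call was lost without any one of 8 arrays: control replicates 1 and 4, and each 6 h and each 18 h animal (0.0522 to 0.133).

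F3, tissue factor, the starter of clotting, rose by 2.49 at 6 h (adjusted p = 0.0228) and 2.32 at 18 h (adjusted p = 0.0275). The F3 calls were lost at both times without control replicate 1 or 4, at 6 h without 6 h replicate 1 or 2, and at 18 h without any one of the 18 h animals (0.0594 to 0.0964). ACKR1, a chemokine receptor of venules, was 1.16 higher at 6 h (adjusted p = 0.0413), with values that overlapped the controls, and the call was lost without 7 of the 12 arrays (up to 0.176). VCAM1 and ICAM1, the leukocyte adhesion molecules that cytokines induce, were not called. VCAM1 averaged 11.83 ± 0.82 at 0 h, 11.78 ± 0.43 at 6 h (adjusted p = 0.967) and 11.00 ± 0.41 at 18 h (adjusted p = 0.197). ICAM1 averaged 7.44 ± 0.53 at 0 h, 7.61 ± 0.16 at 6 h (adjusted p = 0.848) and 7.60 ± 0.13 at 18 h (adjusted p = 0.843).

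**Figure D4:**
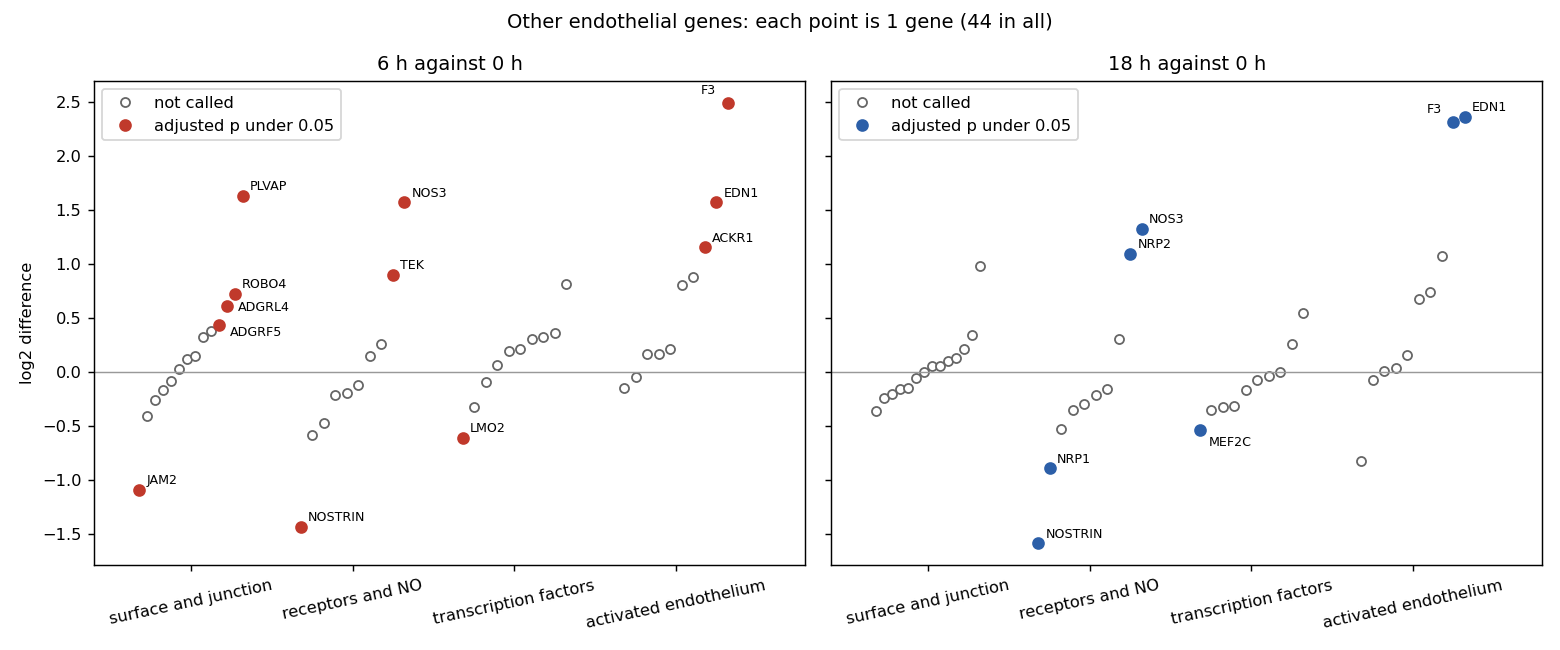
Log2 difference from 0 h (vertical axis) at 6 h and 18 h of 44 other endothelial genes, each point 1 gene, in 4 lists (horizontal axis). Filled and named points were called at an adjusted p under 0.05 by limma. At 6 h 9 genes were higher and 3 lower, and at 18 h 4 were higher and 3 lower, with no surface or junction gene called at 18 h.

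Genes whose products bind or act with the 10 endothelial proteins (16 of 23 measured) gave 3 lower at 6 h (18.8%, beside 14.2% of all genes), and 2 higher and 3 lower at 18 h (31.2%, beside 15.9% of all genes). ANGPT1, the ligand of TEK, read 10.01, 9.83, 9.70 and 9.89 in the controls, 9.08 and 9.32 at 3 h, 8.42, 8.37 and 8.62 at 6 h, and 7.97, 8.62 and 8.59 at 18 h. It was down regulated by a log2 of 1.39 at 6 h (adjusted p = 0.000964) and 1.47 at 18 h (adjusted p = 0.000362), and both calls held without each array in turn. In the pathway of ENG, TGFBR2, the type II TGFβ receptor, fell by 0.50 at 6 h (adjusted p = 0.023, lost without control replicate 1, 2 or 4 or any one of the 6 h animals, 0.0506 to 0.0778) and by 0.72 at 18 h (adjusted p = 0.00337). ID1, a target of BMP signals, fell by 1.04 at 18 h (adjusted p = 0.00147).

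The 2 that rose at 18 h are junction proteins: JUP, plakoglobin, a catenin that binds VE-cadherin, had a log2 difference of 1.03 (adjusted p = 0.00806) and F11R, a junctional adhesion molecule, 0.57 (adjusted p = 0.00548), and both calls held without each array in turn; with the replicate number as a block JUP was not called (0.0607). The third gene that fell at 6 h, ID3, lost its call without 6 of the 12 arrays (up to 0.168).

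APLN, SELPLG, ACVRL1 and CTNNB1 were not called at 6 h or 18 h. APLN, the ligand of APLNR, averaged 6.33 ± 0.23 at 0 h, 6.21 ± 0.05 at 6 h (adjusted p = 0.741) and 6.31 ± 0.08 at 18 h (adjusted p = 0.965), beside the lower values of its receptor. SELPLG, the leukocyte ligand of P-selectin, had log2 differences of 0.03 and 0.10 (adjusted p = 0.879 and 0.56). ACVRL1, the type I receptor that signals with ENG, had 0.34 at 6 h and -0.07 at 18 h (adjusted p = 0.16 and 0.81). CTNNB1, β-catenin, which like JUP binds VE-cadherin, had -0.21 and -0.11 (adjusted p = 0.184 and 0.529). ADAMTS13, the protease that cuts von Willebrand factor, had no probe set under its symbol alone.

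Some markers of other cells that could carry these transcripts also moved, and their counts are to be read beside the 14.2% of all genes called at 6 h and 15.9% at 18 h. Of the platelet markers 3 of 8 were measured, and their summed linear signal was 238 to 308 at 0 h, 224 to 322 at 3 h, 334 to 424 at 6 h and 316 to 368 at 18 h. PF4, a platelet granule chemokine, rose by 1.32 at 18 h (adjusted p = 0.00292), the time of the highest VWF values, and was at 0.41 at 6 h (adjusted p = 0.266). PF4 lay between 4.75 and 5.39 in the controls, a low signal. The other 2 platelet markers were not called at 6 h or 18 h. TUBB1, the brightest of the 3 and most of their sum, differed by 0.45 at 6 h and 0.01 at 18 h. Its 6 h values (8.37, 8.02 and 8.20) lay above all controls (7.52 to 7.94). ITGA2B differed by 0.11 at 6 h and -0.01 at 18 h. The summed signal of the 11 leukocyte markers measured (of 12) was 8438 to 12261 at 0 h, 6940 to 16645 at 3 h, 11195 to 13529 at 6 h and 12297 to 17293 at 18 h. S100A8, the brightest of these markers in every control, weighed heavily in this sum and read 11.01 and 13.38 at 3 h. Of these 11, 1 rose at 6 h and 3 at 18 h, 0 fell, and the median log2 difference was -0.01 at 6 h and 0.10 at 18 h, with CD2, a lymphocyte gene, the lowest at both times (-0.43 and -0.19, not called). CD14, a monocyte receptor, rose at 6 h (log2 2.25, adjusted p = 0.0103) and 18 h (2.64, 0.00352), CD68, of macrophages, at 18 h (1.60, 0.00107), and TYROBP at 18 h (1.15, 0.037, a call lost without 8 of the 12 arrays, up to 0.142). Their part in the PECAM1, SELP and VWF values was not tested. RMA values have no true 0, so no marker could be called absent.

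Lymphatic markers (5 of 7 measured) gave 2 higher at 6 h and 1 higher and 1 lower at 18 h (40% each), and their summed signal was 4531 to 6288 at 0 h, 5235 to 7716 at 3 h, 7328 to 9370 at 6 h and 6385 to 8027 at 18 h. PDPN, podoplanin, rose by 1.07 at 6 h (adjusted p = 0.0064) and 0.94 at 18 h (0.00815). LYVE1, the hyaluronan receptor of lymphatic endothelium, rose by 0.68 at 6 h (0.0133, and 0.0662 without 6 h replicate 2). CCL21, a chemokine of lymphatic vessels, fell by 1.89 at 18 h (0.0376, a call lost without 7 of the 12 arrays, up to 0.149). MMRN1 was not called, but its 18 h values (6.02, 6.06 and 6.51) lay below all controls (6.75 to 7.64). The median log2 difference of the 5 markers was 0.16 at 6 h and -0.03 at 18 h. LYVE1 and PDPN were the brightest of the 5 on every array and so weighed most in the summed signal. PROX1, the defining transcription factor of this lineage, had no probe set under its symbol alone.

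Pericyte and smooth muscle markers (8 of 10 measured) gave 3 higher and 0 lower at both times (37.5%), but at 6 h all 3 calls, of TAGLN, CNN1 and DES, were lost without control replicate 1, control replicate 4, 6 h replicate 1 or 6 h replicate 2 (0.0668 to 0.133) and with the control pair averaged (0.0715 to 0.129). The summed signal was 7454 to 14560 at 0 h, 6678 to 13915 at 3 h, 14818 to 18409 at 6 h and 16015 to 25441 at 18 h. At 18 h TAGLN rose by 2.27 (adjusted p = 0.00534), DES by 0.95 (0.00563) and CNN1 by 2.78 (0.019), all genes of contractile cells. The CNN1 call was lost without control replicate 1 or 4 or 18 h replicate 1 or 2 (0.0589 to 0.0857). MYH11, a smooth muscle myosin, went the other way and was the lowest of the 8 at both times (-0.61 at 6 h and -0.35 at 18 h, not called). The median log2 difference of the 8 was 0.47 at 6 h and 0.64 at 18 h. Fibroblast markers (6 of 6) gave 0 calls at 6 h and 3 higher at 18 h (50%), and their summed signal was 37598 to 62108 at 0 h, 50348 to 64036 at 3 h, 45532 to 57321 at 6 h and 52397 to 74706 at 18 h. PDGFRA, a receptor for platelet-derived growth factor carried by fibroblasts, rose by 3.05 (0.00548), and DCN and LUM, matrix proteoglycans, by 0.76 and 0.82 (0.0209 and 0.0231), both lost without each of 4 arrays (up to 0.0884). The collagens COL1A1, COL1A2 and COL3A1 were not called at either time. COL3A1 was the lowest of the 6 at 18 h (-0.22), and the median log2 difference of the 6 was 0.15 at 6 h and 0.53 at 18 h. Of the 8 luteal steroidogenic markers, all measured, 2 fell at 6 h and 5 at 18 h (62.5%), and CYP11A1, SCARB1 and INHA were not called at either time. Their summed signal was 108755 to 125014 at 0 h, 108972 to 110426 at 3 h, 82982 to 103291 at 6 h and 66708 to 82093 at 18 h. PTGFR, the PGF2α receptor, was 1.31 lower at 18 h (8.14e-05), HSD3B1, a progesterone-forming enzyme, 1.35 lower (0.000525), and NR5A1, a steroidogenic transcription factor, 1.48 lower at 6 h (0.00632). The call of PTGFR at 6 h was lost without control replicate 1 or 4 or any one 6 h animal (0.0538 to 0.0622), that of LHCGR at 18 h without 18 h replicate 1 or 3 (0.0625 and 0.056), and that of STAR at 18 h without 18 h replicate 3 (0.0542). The part of these shifts in cell markers in the endothelial values was not tested.

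The genes whose values ran closest to those of PECAM1, VWF, EMCN and APLNR were ranked by Pearson r over the 12 arrays among 9154 other genes. The arrays fall into time groups, so such r values mainly follow the shared time course, and they are given as a description. For PECAM1 these were EPS8 (r = 0.967), KCNK1 (0.963) and LOXL4 (0.961), with log2 differences at 6 h of 1.23, 1.25 and 3.10. For VWF they were TNFRSF1B (0.962), LASP1 (0.928) and TGFB1 (0.927), each with a larger difference at 18 h (1.22, 0.52 and 1.97) than at 6 h (0.54, 0.25 and 1.39). For EMCN they were DOK4 (0.969), MYCBP2 (0.965) and ZMYM3 (0.959), which were lower by a similar amount at 6 h and 18 h. For APLNR they were CDKN2AIPNL (0.972), SEPTIN4 (0.967) and VPS4A (0.953), with log2 differences at 18 h of -1.04, -1.37 and -0.89. The 4 sets held 12 different genes.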

How the data were processed

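The values deposited by the authors were on the log2 scale and, per the labels, came from robust multichip averaging (RMA) of 12 GeneChip Bovine Genome Arrays. The software version is not given in the sources used here. RMA compresses differences at low signal, and precision is limited by the 12 arrays. Of 24128 probe sets, 112 controls were left out. Genes were named through the platform annotation (1 symbol for 13292 probe sets, several for 86, none for 10638), and a list gene was read from its probe set with the highest mean, over 9155 genes.

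The 4 group means were fitted to 12 arrays with limma 3.58.1 in R 4.3.3 (lmFit, eBayes), two-sided, with Benjamini-Hochberg adjustment over 24016 probe sets within each comparison and calls at an adjusted p under 0.05. Summed signals add the antilogged values of a list on an array, so the brightest probe sets weigh most and a sum does not describe each gene of its list. The steps were tested on simulated data.

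The 10 genes, the 11 other lists, the tests and the alternatives were chosen with earlier results of these data known. Named genes were all endothelial probe sets, up to 3 genes with the lowest adjusted p of each list among those called at 6 h or 18 h, 10 fixed genes (KDR, TEK, NOS3, APLN, SELPLG, ADAMTS13, ACVRL1, CTNNB1, VCAM1 and ICAM1) and the 3 genes most like PECAM1, VWF, EMCN and APLNR. AIF1, JUP, F11R, ID3, CD2, S100A8, TUBB1, ITGA2B, MMRN1, MYH11, LHCGR, STAR, CYP11A1, SCARB1, INHA, COL1A1, COL1A2 and COL3A1 were named after their values were seen. Alternatives left out the 40% of probe sets with the lowest means, or used arrays centred on their medians, repeated quantile normalization, trend and robust settings, the arrays compared alone, control replicates 1 and 4 averaged, the mean of a gene's probe sets, the replicate number as a block, and each array left out. The annotation tables held no sequences for these genes, and none are shown.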

Additional observations from a re-analysis of the deposited data

Results flagged for a closer look

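In the 4 control arrays 1 value stood far from the other 3 in 7 of 116 probe sets checked (gap to the nearest value divided by the whole range above the critical value of Dixon), and chance alone sets off about 1 in 20 such checks. SELP was high in control replicate 3 (ratio 0.834, log2 value 9.69, next control 7.05), and it is the 1 endothelial probe set of the 15 that was set off. In the same animal AIF1 (0.921, 11.86, next 9.48) and TYROBP (0.845, 8.70, next 7.57) were high and ID3 (0.877, 10.34, next 10.67) was low. In control replicate 2 FLT1 (0.875), PROCR (0.834) and APLN (0.837, 6.67, next 6.25) were high. The part of any of these in the comparisons was not tested beyond the values without each array.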

How the results depend on the processing

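The log2 differences of the 15 endothelial probe sets moved by less than 1 SD (the larger of the 2 group SDs) in all 412 values under other settings. The same held in all 720 values without 1 array, and 0 called differences changed sign. Leaving out 1 array cannot move a group mean by 1 SD of that group, so nothing is read from the 720 values. The filter on dim probe sets, the trend and robust settings and the compared arrays alone cannot change a log2 difference either. At 6 h and 18 h the replicate block gave the same differences from 0 h as leaving out control replicate 4. Averaging control replicates 1 and 4 only changes the weights of the controls. Nothing is therefore read from the 412 values either. SELP at 6 h moved from 1.47 to 2.19 without control replicate 3, where the control SD was 1.46. Counts of calls varied. Of the 15 probe sets, 8 were called at 6 h, 5 with control replicates 1 and 4 averaged (5.73% of all probe sets), and 5 to 9 without 1 array. At 18 h 10 were called, 8 with the pair averaged (7.73% of all probe sets), and 7 to 11 without 1 array. At 3 h and for 18 h against 6 h the count was 0 to 0 without 1 array. The 44 other endothelial genes gave 12 calls at 6 h, 5 with the control pair averaged, and 3 to 15 without 1 array; at 18 h they gave 7, 4 with the pair averaged, and 3 to 10 without 1 array. The highest counts, 15 and 10, came without either 3 h animal. Beside all these counts, the share of all probe sets called without 1 array was 4.86% to 14.9% at 6 h and 6.42% to 16.1% at 18 h. With all arrays it was 11.3% and 12.3%, and the share of all genes, to which the 44 genes compare, was 14.2% and 15.9%.

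The replicate numbers did not pair the samples (correlations of deviations from -0.26 to 0.19). With the replicate block in the fit the counts were 5 and 6 of the 15 at 6 h and 18 h (3.62% and 6.16% of all probe sets) and 4 and 4 of the 44 other genes.

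Calls of the VWF probe set at 6 h were lost in 4 other settings and without 8 arrays, of the second APLNR probe set at 6 h in 6 and without 10, of the second CDH5 probe set at 6 h in 2 and without 6, and of TIE1 at 18 h in 3 and without 7. At 18 h the second CDH5 probe set lost its call in 2 and without 3, the second APLNR probe set in 1 and without 2, and CLDN5 with the replicate block. SELP and the brighter CDH5 probe set gained calls at 6 h and 18 h without control replicate 3. The brighter CDH5 probe set also gained a call at 6 h with the filter on dim probe sets, and ENG at 6 h without control replicate 2. The filter on dim probe sets left 13 of the 15. The cause of these changes was not tested. No depth is defined for arrays, and signals near the bottom of the scale (the second VWF probe set, SELE, KDR) limit what can be seen.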
